A study of Mus musculus with 12 samples.

Results

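The altitude effect pooled over both treatments compares 6 tumours grown at simulated high altitude with 6 grown at ambient altitude, with the drug treatment held as a covariate, so that every one of the 12 RNA-seq libraries (12 of 12) enters. The members are all genes with at least 10 counts in 3 or more libraries, which held for 15333 of the 35434 genes in the count table. Each library came from the subcutaneous tumour of a different female BALB/c mouse, aged 6-8 weeks, that had been injected with 4T1 cells, a mouse triple-negative breast cancer line. Mice entered their housing condition 3 days before injection. Ambient mice (groups MC and MI) lived at about 1500 m, and the other mice (HC and HI) lived in a hypobaric chamber set to 3500 m. MC and HC mice received vehicle. MI and HI mice received IOX2, an inhibitor of the oxygen-sensing prolyl hydroxylases, by intraperitoneal injection of 10 mg/kg daily for 10 days from day 9 after injection of the cells. All tumours were collected on study day 22, with 3 mice in each group. All mice carried the same tumour line and received daily injections, and since the labels place only HC and HI mice in the chamber, altitude and chamber housing cannot be told apart. The pooled comparison asks which genes of the tumour and its stroma differ with altitude on average over vehicle and IOX2 tumours.

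Thinner air lowers the oxygen that reaches tissue. Cells answer through hypoxia-inducible factors (HIFs), which the prolyl hydroxylases mark for destruction while oxygen is plentiful, and the body answers by making more red blood cells. Tumours recruit vessels by sprouting, in which endothelial tip cells carry the Notch ligand Dll4 and Notch signalling in their neighbours switches on repressors such as Hey1. Tumour and stromal cells also release CXC chemokines that draw neutrophils from the blood, and 4T1 tumours are known for a strong neutrophil response.

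Library totals ran from 31661685 (HC1) to 40019343 counts (MI2), and the total did not differ with altitude beyond the spread (exact permutation within treatment, two-sided p = 0.81, with 0.005 the smallest p this design allows). The same exact permutation test gave p = 0.51 for the share of mitochondrial counts, p = 0.66 for the share of the 20 most abundant genes and p = 0.975 for the number of genes detected. Levels are CPM, counts scaled to a common library total after TMM normalization, and values within a group carry their SD over 6 mice. The epithelial genes Krt8, Krt18 and Epcam were abundant at both altitudes, with means of 1043 and 1215 CPM for Krt8, and the summed epithelial level ran from 4089.6 to 5299.6 CPM over the 12 libraries. Some tumours stood apart by the other cells they held. MI1 had the highest summed levels of B-cell, T-cell, endothelial, mural and skeletal-muscle genes, and HC1, HC2 and HI2 had the highest fat-cell sums.

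At simulated altitude 58 genes passed the threshold, an adjusted p under 0.05 in edgeR's quasi-likelihood test with Benjamini-Hochberg adjustment over all genes tested. They are 0.378% of the 15333 genes. Higher at altitude were 28 genes (0.183%), and lower were 30 (0.196%). DESeq2, run on the same genes, called 816 (439 higher, 377 lower), among them all 58. At an unadjusted p under 0.05 stood 2521 genes, 1256 with a positive and 1265 with a negative change. Counts given below for gene lists are to be read beside these counts over all 15333 genes. Called changes had a median size of 1.01 on the log2 scale, and 29 of them were larger than 2-fold, 16 higher and 13 lower. The values of the 6 simulated-altitude and 6 ambient libraries did not overlap for 50 of the 58 called genes, against 296 of all genes tested (1.93%). The high share among called genes follows in part from selecting them on these same values. Over all genes tested the median log2 change was -0.02 and 46.2% of changes were positive. By p, the vessel genes Vash1 and Cd93 came first of all genes.

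**Figure D1:**
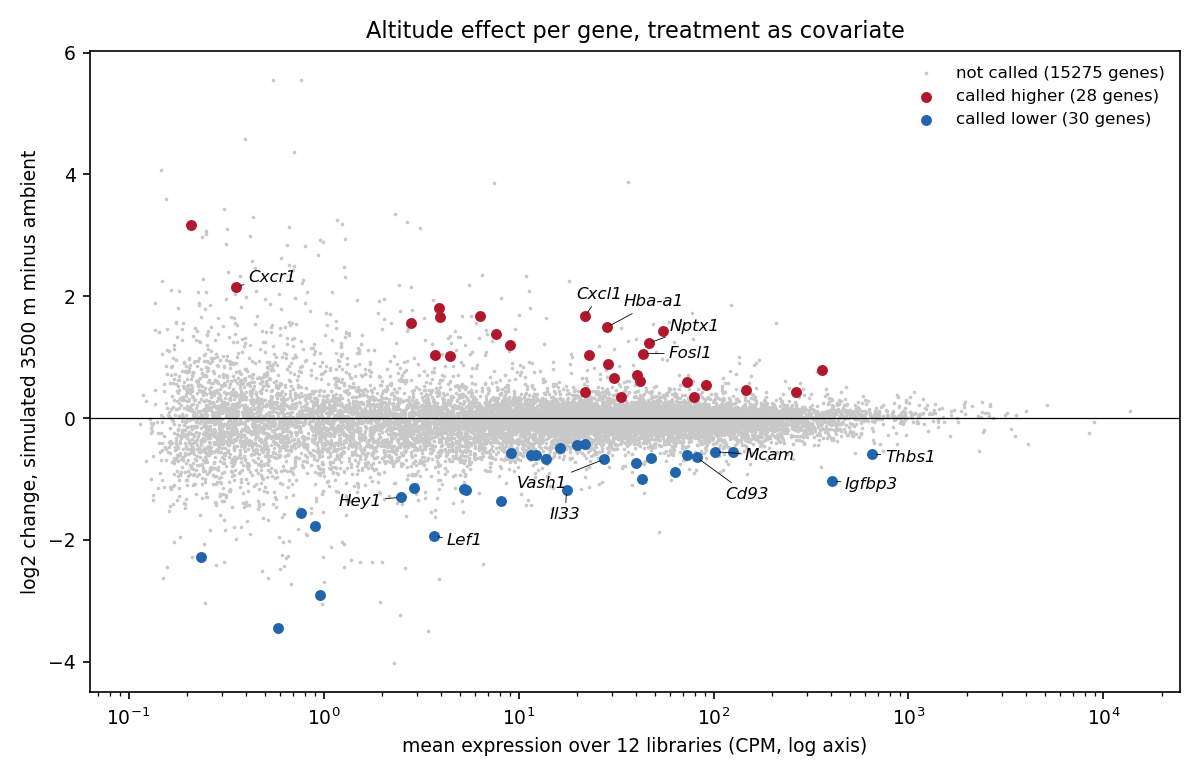
Log2 change with altitude (vertical axis, simulated 3500 m minus ambient, treatment as covariate) against the mean level over 12 libraries (horizontal log axis, CPM) for 15333 genes. Red points are the 28 genes called higher and blue points the 30 called lower. Among called genes of high level, Igfbp3 (-1.03) and Thbs1 (-0.59) sit below the line, and Hmga1b (0.80) and Adipor2 (0.45) above it.

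The number of called genes depended on single mice. With 1 library left out it was 2 without MC3, 4 without MC2, 10 without HC3, 12 without HI2, 14 without MI3, 15 without MI1 or HI1, 17 without MC1 or HC1, 36 without HC2, 37 without MI2 and 328 without HI3. Vash1 and Cd93 were the only genes called in each of these 12 fits. No called gene changed direction in any of them, which follows in part from selecting the genes on these same libraries. Of the 37 called genes named below, 13 were called in 5 or more of the 12 fits and 24 in 4 or fewer. For each of those 24, leaving out any of at least 8 single libraries ended the call.

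**Figure D2:**
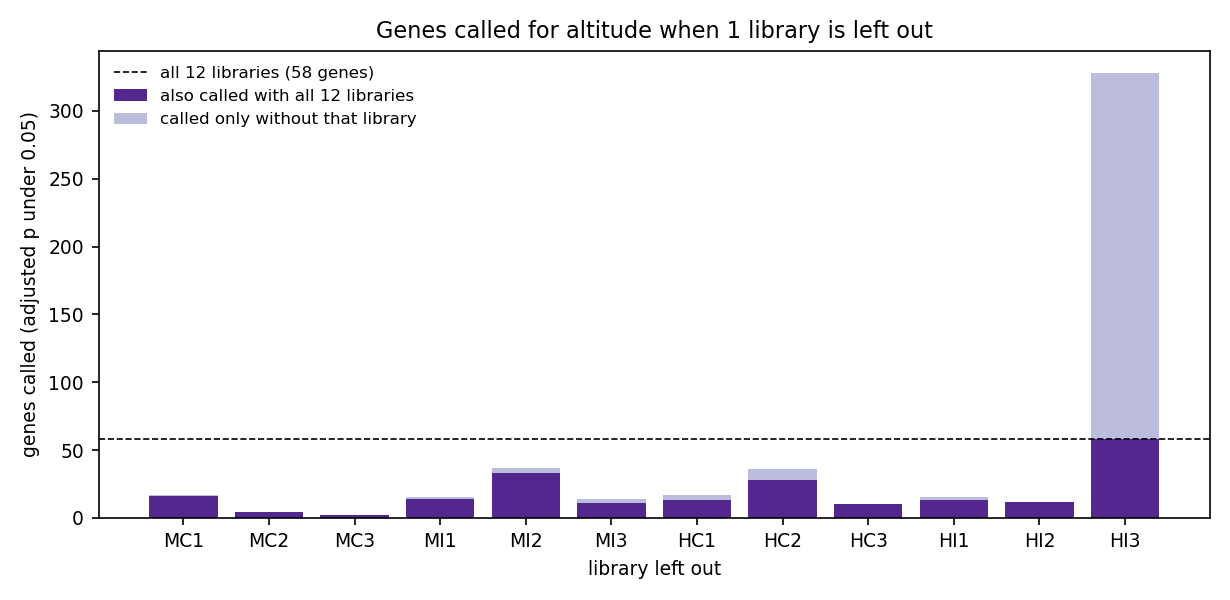
Number of genes called for altitude (vertical axis) when the library on the horizontal axis is left out; dark bars are genes also called with all 12 libraries, pale bars genes called only without that library, and the dashed line is the 58 genes of the full data. The bar without HI3 reaches 328 genes, and the bars without MC2 and MC3 stay at 4 and 2.

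Vash1 had the smallest adjusted p of all genes. It encodes vasohibin 1, which endothelium makes and which restrains vessel growth. Its level in the single tumours was 32.9, 32.4 and 37.3 CPM in MC, 37.1, 31.2 and 32.3 in MI, 22.0, 23.6 and 22.1 in HC and 19.4, 19.4 and 20.9 in HI. The lowest ambient tumour stood above the highest altitude tumour, and the 3 HI tumours were the lowest of all. Vash1 fell from 33.9 ± 2.63 to 21.3 ± 1.66 CPM (SD, n = 6 mice each), a log2 change of -0.67 (SE 0.07, adjusted p = 0.00344) in edgeR. Its adjusted p stayed between 0.00576 and 0.0195 in edgeR when any 1 library was left out.

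Cd93 and Mcam, both found on the surface of endothelium, also fell. Cd93, a receptor of endothelial and myeloid cells, stood at 102, 98.3 and 101 CPM in MC, 110.2, 84.9 and 102 in MI, 71.4, 63.5 and 73.0 in HC and 56.5, 62.1 and 58.1 in HI. Its ambient and altitude tumours did not overlap, and its log2 change was -0.64 (SE 0.07, adjusted p = 0.00918). Mcam, an adhesion molecule of endothelium and pericytes (CD146), ranged from 112 to 138 CPM (median 119) at ambient altitude and from 69.2 to 94.6 CPM (median 81.3) at simulated altitude. All 6 altitude tumours lay below all 6 ambient ones. The log2 change of Mcam was -0.55 (SE 0.08, adjusted p = 0.0245) in edgeR, and leaving out MC2, MC3 or HI2 ended its call (adjusted p up to 0.0716).

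The Notch ligand Dll4 and the Notch-induced repressor Hey1 both fell. Dll4 was uniform at ambient altitude, with 23.2, 23.4 and 23.4 CPM in MC and 23.4, 22.7 and 21.8 in MI. At simulated altitude it was at 16.6, 18.6 and 16.03 CPM in HC and 14.6, 17.9 and 17.5 in HI, all below the ambient range. Its log2 change was -0.45 (SE 0.07, adjusted p = 0.0293), and its change fitted apart was -0.44 in vehicle and -0.44 in IOX2 tumours. Hey1 is a gene of low level, ranging from 2.67 to 4.27 CPM (median 3.59) at ambient altitude and from 1.01 to 1.77 CPM (median 1.504) at simulated altitude. Its groups did not overlap, and its log2 change was -1.30 (SE 0.19, adjusted p = 0.0245). Dll4 lost its call without MC1, MC2, MC3, MI1, HC1 or HC3 (edgeR adjusted p up to 0.0770), and Hey1 without MC3 or HI1 (up to 0.0722). The list of Notch and BMP genes as a whole had 19 tested members, of which these 2 were called lower and 0 higher in edgeR (DESeq2 called 1 higher and 2 lower), with a median of -0.04. Among members that were not called, the ligand gene Dll1 had a log2 change of 0.45 (adjusted p = 0.124 in edgeR), the BMP inhibitor gene Smad6 -0.37 and the Notch target Hes1 -0.35.

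Nid2 and Kcne3 complete the vessel-growth genes that fell. Nid2, which links laminin and collagen in basement membranes, ranged from 50.02 to 69.2 CPM (median 56.8) at ambient altitude and from 32.2 to 49.8 CPM (median 34.8) at simulated altitude. HC3, at 49.8 CPM, came closest to the ambient tumours, of which the lowest was MI2 at 50.02. Its log2 change was -0.66 (SE 0.12, adjusted p = 0.0399). Kcne3, an accessory subunit of potassium channels, had a log2 change of -1.15 (SE 0.19, adjusted p = 0.0397), from a mean of 4.03 to 1.81 CPM. Of the 18 vessel-growth genes tested, 6 fell and 0 rose in edgeR (DESeq2 called 0 higher and 7 lower), and 17 had a negative change, with a median of -0.39 against -0.02 over all genes. That list was drawn up with the falls of several of its members already known, so its count is a description. The uncalled members with the smallest p were Trp53i11 (log2 change -0.42), the tip-cell gene Esm1 (-0.51) and the endothelial receptor gene Clec14a (-0.37).

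No gene of the pan-endothelial list passed the threshold in edgeR, which 0.378% of all genes tested passed. Cd93 and Mcam, which are also found on endothelium, were placed in the vessel-growth list. The contrast between the lists thus depends on how genes were assigned to them. Of 21 pan-endothelial markers, 0 were called in edgeR, while unadjusted p was under 0.05 for 1 with a positive and 10 with a negative change (DESeq2 called 1 and 2), and the median change was -0.26. The receptor gene Kdr had a log2 change of -0.44 (adjusted p = 0.1004) and the transcription factor gene Sox18 -0.43 (adjusted p = 0.138). Vwf, the stored clotting factor of endothelium, went the other way. It ranged from 12.4 to 20.03 CPM (median 17.0) at ambient altitude and from 20.3 to 36.6 CPM (median 29.0) at simulated altitude, with no overlap, and its log2 change of 0.78 did not pass (edgeR adjusted p = 0.0674). The summed level of the list ran from 946 to 1174 CPM at ambient and 805 to 1014 CPM at simulated altitude, so the ranges overlap. In bulk tissue, fewer endothelial cells and less RNA per cell cannot be told apart. When called vessel genes were divided by the summed endothelial level of their own library, Vash1, Cd93, Mcam, Nid2, Kcne3 and Hey1 remained without overlap. Dll4 overlapped. These genes were picked from the called ones, and none overlapped before the division. The division therefore describes them and cannot decide between fewer cells and less RNA per cell.

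Cells that wrap vessels and the VEGF system held no gene past the threshold in edgeR, which 0.378% of all genes tested passed. Of 15 pericyte and vascular muscle genes 0 were called in edgeR, while unadjusted p was under 0.05 for 0 with a positive and 2 with a negative change (DESeq2 called 0 and 0). Their median was -0.24. The leading members were the pericyte genes Rgs5 (-0.69, edgeR adjusted p = 0.180) and Pdgfrb (-0.24) and the smooth-muscle actin gene Acta2 (-0.32). Of 13 genes of VEGF and angiopoietin ligands and receptors 0 were called in edgeR, while unadjusted p was under 0.05 for 1 with a positive and 3 with a negative change (DESeq2 called 0 and 3). Their median was -0.12. The co-receptor gene Nrp1 had a log2 change of -0.85 (adjusted p = 0.115), and the lymphatic receptor gene Flt4 -0.61. Vegfa, the main growth signal for vessels and a HIF target, ranged from 54.2 to 102 CPM (median 80.4) at ambient altitude and from 43.2 to 107 CPM (median 63.7) at simulated altitude. The ranges overlap widely, and its log2 change was -0.12 with a 95% interval of -0.60 to 0.35 (edgeR adjusted p = 0.811). The medians of the vessel lists were unequal between treatments: -0.14 in vehicle and -0.51 in IOX2 tumours for vessel-growth genes, -0.05 in vehicle and -0.57 in IOX2 tumours for pan-endothelial markers and 0.09 in vehicle and -0.52 in IOX2 tumours for mural genes. MI1, an IOX2 tumour at ambient altitude, had the highest endothelial and mural sums (1174 and 905 CPM). Without MI1 the pooled medians were -0.31, -0.17 and -0.11, in place of -0.39, -0.26 and -0.24.

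**Figure D3:**
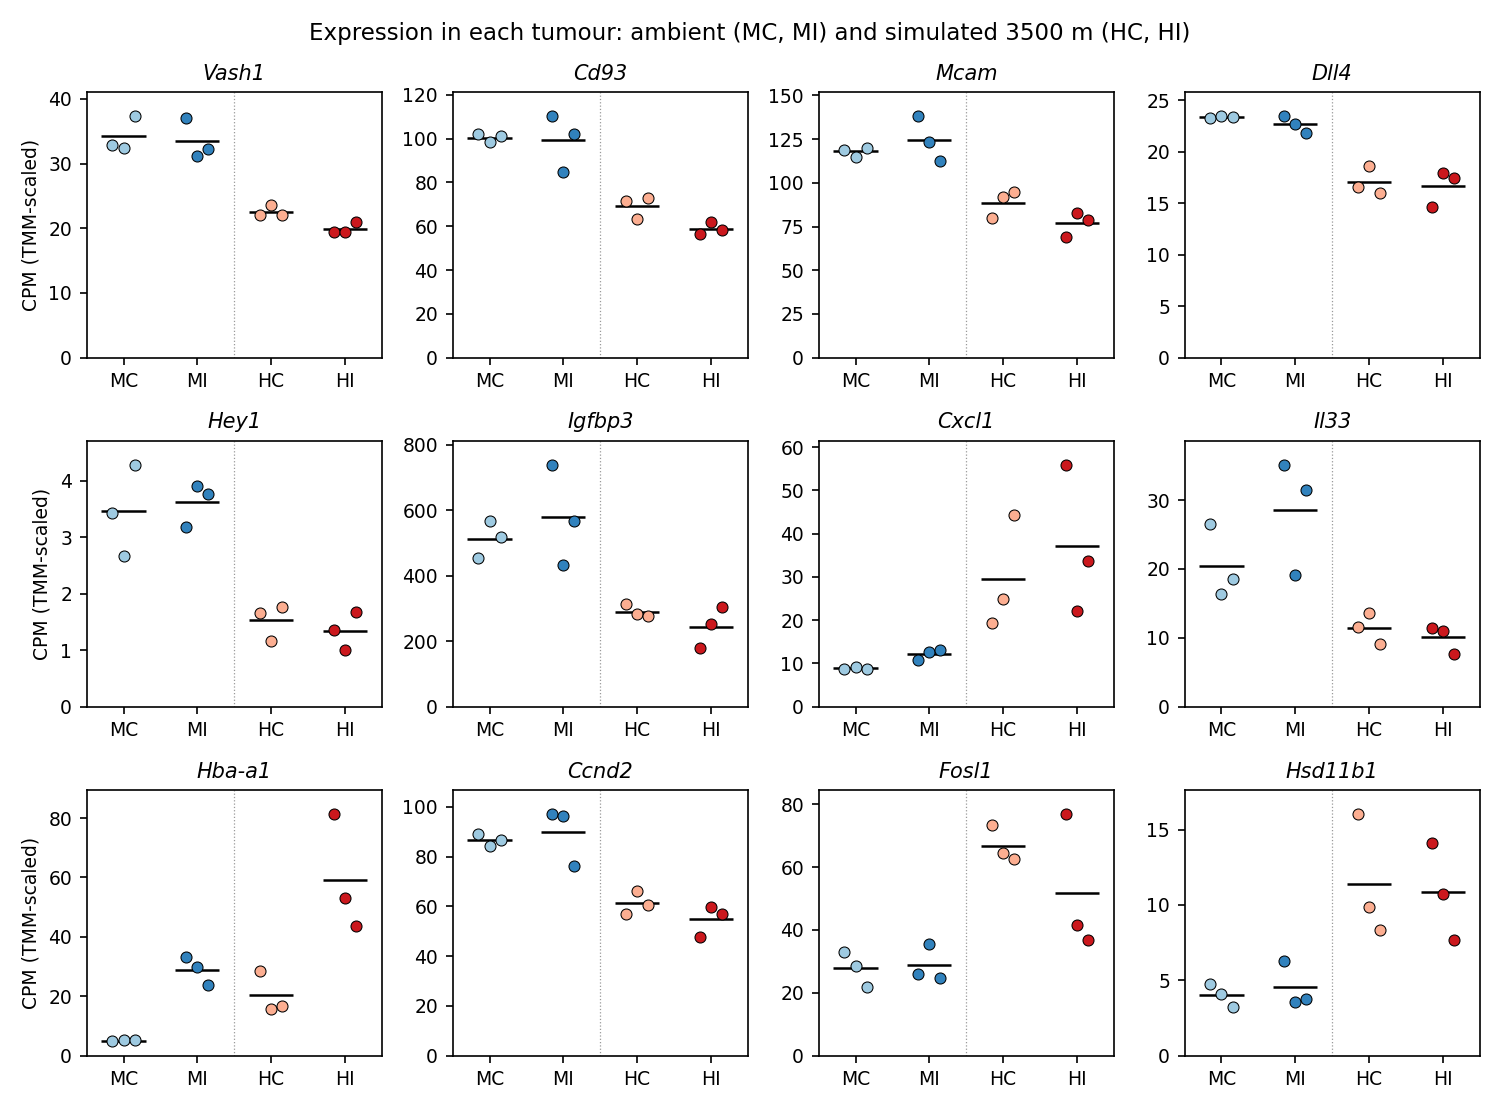
Level of 12 genes in each tumour (vertical axes, TMM-scaled CPM, starting at 0) by group, MC and MI at ambient and HC and HI at simulated altitude; each point is 1 mouse and each bar the mean of 3. For Vash1, Cd93, Mcam, Dll4, Hey1, Igfbp3, Il33 and Ccnd2 every HC and HI point lies below every MC and MI point, for Cxcl1, Fosl1 and Hsd11b1 above, and Hba-a1 overlaps between MI and HC.

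Of the 48 called genes that reached a mean of 5 CPM at either altitude, Klk10 had the largest rise and Cxcl1 came next. Cxcl1 encodes a ligand of Cxcr2 that draws neutrophils, and it stood at 8.74, 9.16 and 8.68 CPM in MC, 10.7, 12.6 and 13.2 in MI, 19.4, 24.9 and 44.3 in HC and 55.9, 22.1 and 33.6 in HI. The 6 altitude tumours were all above the 6 ambient ones and spread much more widely. Cxcl1 rose from 10.5 ± 1.99 to 33.4 ± 14.3 CPM (SD, n = 6 each), a log2 change of 1.67 (SE 0.23, adjusted p = 0.0188) in edgeR. Leaving out MC2 or MC3 ended the call (edgeR adjusted p up to 0.0716). It was the 1 gene called when HC1, HC2 and HI2, the tumours with high fat-cell sums, were left out together, with a log2 change of 2.06 there.

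Cxcr1, a receptor for such chemokines on neutrophils, rose as well from a very low level. It ranged from 0.0509 to 0.252 CPM (median 0.112) at ambient altitude and from 0.364 to 0.772 CPM (median 0.587) at simulated altitude, and its log2 change was 2.16 (SE 0.38, adjusted p = 0.0399). A count of 3 equals 0.0750 to 0.0948 CPM in these libraries, so its ambient values rest on few reads. All 10 tested genes of the list of neutrophil-attracting chemokines, their receptors and inducers had a positive change, with a median of 1.02. In edgeR 2 were called higher and 0 lower (DESeq2 called 6 higher and 0 lower). The granulocyte growth factor gene Csf3 narrowly missed the threshold, with 30.1, 40.1 and 28.3 CPM in MC, 39.4, 47.8 and 36.3 in MI, 41.8, 82.2 and 73.7 in HC and 108, 53.7 and 72.6 in HI. Its log2 change was 0.96 (adjusted p = 0.0538). The related chemokine genes Cxcl2 and Cxcl5 had log2 changes of 1.80 (adjusted p = 0.129) and 1.222 (adjusted p = 0.140) in edgeR. In both, HC1 had the lowest level of all 12 tumours (1.13 and 4.19 CPM), while HI1 had the highest (37.7 and 35.8 CPM).

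Neutrophil genes themselves held 1 called gene. Of 21 tested, 1 rose and 0 fell in edgeR (DESeq2 called 5 higher and 0 lower), 15 had a positive change and the median was 0.20. The gene that rose was Wfdc21 (log2 change 1.56 (SE 0.30, adjusted p = 0.0479) in edgeR), a secreted protein gene of low level. The uncalled members with the smallest p were the collagenase gene Mmp8 (1.46), S100a8, which encodes a calcium-binding protein that neutrophils hold in bulk (1.14), and the lipolysis inhibitor gene G0s2 (1.26). Summed neutrophil levels overlapped, at 1540.5 to 2164 CPM at ambient and 1536 to 2367 CPM at simulated altitude. The list medians were 0.80 in vehicle and 0.09 in IOX2 tumours.

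Among 20 inflammatory genes 15 had a positive change and the median was 0.39. In edgeR 0 rose and 1 fell, while DESeq2 called 4 higher and 1 lower. The gene that fell was Il33, an alarmin stored in the nuclei of stromal and epithelial cells. Il33 ranged from 16.4 to 35.1 CPM (median 22.8) at ambient altitude and from 7.67 to 13.6 CPM (median 11.2) at simulated altitude, without overlap, and its log2 change was -1.17 (SE 0.20, adjusted p = 0.0399). The next members by p were not called. The alarmin gene Il1a had a log2 change of 1.30 (adjusted p = 0.0710) with 116 CPM in HI1, the NF-kB inhibitor gene Nfkbia 0.61 (adjusted p = 0.0710), and the cytokine gene Lif 0.42 (adjusted p = 0.1004), all by edgeR.

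Promoter sequence is shown for Cxcl1, a chemokine gene that rose, and for 2 vessel genes that fell, since oxygen- and cytokine-driven transcription is read from such stretches. RefSeq promoters of build GRCm38.p6 were matched by symbol for 11901 of the 15333 genes tested, 23 of 28 called higher and 16 of 30 called lower. The 250 bases upstream of the start site are printed 5′ to 3′ on the gene's strand. Capitals mark the core of the hypoxia response element (ACGTG or GCGTG, either strand) and the NF-kB consensus (either strand), which do not overlap each other here; ACGTG is also contained in the E-box of clock factors.
Cxcl1, chr5:90890995-90891244, plus strand: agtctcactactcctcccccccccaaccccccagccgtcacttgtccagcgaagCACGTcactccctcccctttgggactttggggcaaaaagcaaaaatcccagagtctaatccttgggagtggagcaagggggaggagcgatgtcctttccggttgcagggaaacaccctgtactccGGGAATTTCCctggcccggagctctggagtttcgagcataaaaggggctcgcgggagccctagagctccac
Dll4, chr2:119325534-119325783, plus strand: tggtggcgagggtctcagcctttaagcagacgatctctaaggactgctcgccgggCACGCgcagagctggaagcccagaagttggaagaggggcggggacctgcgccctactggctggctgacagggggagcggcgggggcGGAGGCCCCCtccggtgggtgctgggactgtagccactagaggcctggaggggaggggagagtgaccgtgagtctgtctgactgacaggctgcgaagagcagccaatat
Vash1, chr12:86678450-86678699, plus strand: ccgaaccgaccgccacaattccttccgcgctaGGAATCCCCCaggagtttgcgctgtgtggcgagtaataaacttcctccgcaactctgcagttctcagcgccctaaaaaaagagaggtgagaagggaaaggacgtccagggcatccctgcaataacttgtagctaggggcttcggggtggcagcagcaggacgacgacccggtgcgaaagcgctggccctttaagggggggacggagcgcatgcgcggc
The hypoxia core was present once each in the Cxcl1 and Dll4 stretches and 0 times in that of Vash1, and the NF-kB consensus once in each of the 3. Across the matched genes, the hypoxia core was found in 56.5% of promoters of genes called higher, 43.8% of those called lower and 54.0% of all genes tested. The NF-kB consensus was found in 17.4% (4 of 23), 12.5% (2 of 16) and 8.78% of them. The motifs were chosen after the calls were seen, and a match is a description of the letters only.

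The globin genes Hba-a1, Hbb-bs and Hbb-bt and the heme enzyme gene Alas2 rose in tumours at altitude. Hba-a1, which encodes alpha-globin, stood at 4.96, 5.15 and 5.14 CPM in MC, 33.3, 30.0 and 23.7 in MI, 28.6, 15.6 and 16.8 in HC and 81.3, 53.1 and 43.5 in HI. Within each treatment every altitude tumour exceeded every ambient one, but MI tumours (ambient, IOX2) reached the levels of HC tumours, so the pooled ranges overlap. Its log2 change was 1.49 (SE 0.23, adjusted p = 0.0293). It was the 1 called gene whose unadjusted interaction p was under the 0.05 line (0.0224 in edgeR's fit across all genes), with changes of 2.01 in vehicle and 1.03 in IOX2 tumours. The beta-globin gene Hbb-bs had a log2 change of 1.42 (SE 0.22, adjusted p = 0.0312), the beta-globin gene Hbb-bt 1.19 (SE 0.23, adjusted p = 0.0479) and Alas2, the first enzyme of heme synthesis in red cells, 1.67 (SE 0.30, adjusted p = 0.0414). All 3 had the same order of groups as Hba-a1, with MC lowest and HI highest by mean. Of 7 red-cell genes tested, these 4 rose and 0 fell in edgeR (DESeq2 called 6 higher and 0 lower); the median was 1.42. The second alpha-globin gene Hba-a2 (1.37, edgeR adjusted p = 0.0710) is nearly identical to Hba-a1, so the split of reads between them is uncertain. Slc4a1, the anion exchanger of the red-cell membrane, was close to 0 at ambient altitude (at most 0.146 CPM) and reached 2.82 CPM in HI1. Ermap, a red-cell adhesion gene at under 1 CPM, had a log2 change of -0.62. Of 15 red-cell markers listed, 8 were too low to be tested. Whether the globin RNA came from blood held in the tumour was not tested. Leaving out MC1, MC2, MC3, MI3, HC3 or HI1 ended the calls of Hba-a1 and Hbb-bs (edgeR adjusted p up to 0.0843 and 0.0843).

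The most abundant gene among the large falls was Igfbp3, which binds insulin-like growth factors. It stood at 454, 567.8 and 519 CPM in MC, 738, 432 and 567 in MI, 312, 282 and 277 in HC and 179, 251 and 304 in HI. The altitude tumours lay at or below 312 CPM and the ambient ones at or above 432. Igfbp3 fell from 546 ± 109.6 to 267 ± 48.3 CPM (SD, n = 6 each), a log2 change of -1.03 (SE 0.15, adjusted p = 0.0255). Bmp2 and Thbs1 fell as well. The growth factor gene Bmp2 had a log2 change of -1.36 (SE 0.25, adjusted p = 0.0461) and ranged from 8.86 to 17.0 CPM (median 11.1) at ambient altitude and from 2.24 to 6.59 CPM (median 4.35) at simulated altitude. Thbs1, a matrix glycoprotein that restrains vessel growth, ranged from 675 to 923 CPM (median 749.5) at ambient altitude and from 374 to 695 CPM (median 515) at simulated altitude. The HI2 tumour, at 695 CPM, overlapped MC3 at 675, and the log2 change was -0.59 (SE 0.11, adjusted p = 0.0447).

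Ccnd2 and Rhou had among the smallest p of the falls. Ccnd2, which encodes cyclin D2, ranged from 76.1 to 97.0 CPM (median 87.8) at ambient altitude and from 47.8 to 66.0 CPM (median 58.4) at simulated altitude, and Rhou, a small GTPase, from 134 to 169 CPM (median 149.7) at ambient altitude and from 85.7 to 116 CPM (median 104) at simulated altitude. Neither overlapped, with log2 changes of -0.61 (SE 0.08, adjusted p = 0.0188) and -0.56 (SE 0.08, adjusted p = 0.0188). Leaving out MC2 or MC3 ended both calls (edgeR adjusted p up to 0.0716). Of the 11 D-type cyclins, their kinases and inhibitors, Ccnd2 alone was called in edgeR (DESeq2 called 0 higher and 1 lower), and the median was 0.08. Next by p came the inhibitor genes Cdkn1c (0.99), Cdkn1a (0.28) and Cdkn1b (-0.45), none called in edgeR. Sesn3, a stress-induced gene of the sestrin family, had a log2 change of -0.88, the potassium-channel gene Kcnj2 -1.18 and Clca2 -1.17. The 3 had edgeR adjusted p from 0.0378 to 0.0399, and their groups did not overlap.

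The rises reached beyond chemokines and globins. Nptx1, a pentraxin first known from neurons, ranged from 14.1 to 41.0 CPM (median 29.3) at ambient altitude and from 48.9 to 87.4 CPM (median 63.8) at simulated altitude, and its log2 change was 1.23 (SE 0.21, adjusted p = 0.0399). Fosl1, a subunit of the AP-1 transcription factor, stood at 73.3, 64.4 and 62.6 CPM in HC and 76.8, 41.5 and 36.8 in HI, against 21.9 to 35.6 in the ambient tumours. All altitude tumours were higher, HI3 by a small margin. The log2 change of Fosl1 was 1.06 (SE 0.19, adjusted p = 0.0399). Pthlh, which encodes parathyroid hormone-related protein, ranged from 11.9 to 20.6 CPM (median 13.96) at ambient altitude and from 22.7 to 48.2 CPM (median 28.4) at simulated altitude. HI1 was far above the other altitude tumours, and the log2 change was 1.03 (SE 0.18, adjusted p = 0.0399). The kallikrein-related protease gene Klk10 (1.80), Rufy4 (1.67) and the mitochondrial carrier gene Slc25a48 (1.03) rose from means of 1.73, 1.89 and 2.43 CPM (edgeR adjusted p from 0.0447 to 0.0461).

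Hsd11b1, the enzyme that turns inactive glucocorticoid into its active form, rose without overlap. It stood at 4.73, 4.06 and 3.21 CPM in MC, 6.26, 3.57 and 3.76 in MI, 16.03, 9.89 and 8.34 in HC and 14.1, 10.7 and 7.69 in HI. The log2 change was 1.38 (SE 0.22, adjusted p = 0.0312). Of 15 glucocorticoid-related genes it was the 1 called in edgeR (DESeq2 called 4 higher and 0 lower), while 13 had a positive change and the median was 0.43. The clock gene Per1 (0.61, edgeR adjusted p = 0.103), the transcription factor gene Zbtb16 (2.93) and the phosphatase gene Dusp1 (0.43) came next. Zbtb16 reached 8.13 CPM in HC1, and its change was 4.87 in vehicle and 1.24 in IOX2 tumours. Of 19 clock genes 0 were called in edgeR, while unadjusted p was under 0.05 for 8 with a positive and 2 with a negative change (DESeq2 called 3 and 0). Their median was 0.23. The clock repressor genes Ciart and Per2 led with 1.12 (adjusted p = 0.0710) and 0.68 (adjusted p = 0.0810), and Ciart did not overlap. The hour of day at which each tumour was collected is not given in the sources used here. Of 20 immediate-early genes, the first to be switched on by growth factors or stress, Fosl1 was the 1 called in edgeR (DESeq2 called 2 higher and 0 lower), 16 had a positive change and the median was 0.23; Zfp36 and Klf6 had 0.28 and 0.32.

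Kit was the gene of mast cells that fell. This receptor for stem-cell factor, also found on progenitors, ranged from 13.1 to 15.8 CPM (median 15.1) at ambient altitude and from 7.91 to 12.8 CPM (median 9.58) at simulated altitude, without overlap. Its log2 change was -0.61 (SE 0.10, adjusted p = 0.0399). Of 12 mast-cell genes, Kit was the 1 called in edgeR (DESeq2 called 1 higher and 4 lower), 11 had a negative change and the median was -0.85. The summed mast-cell level ran from 69.4 to 116 CPM at ambient and 28.7 to 78.8 CPM at simulated altitude, the lowest in HC1. The protease gene Cpa3 had a log2 change of -1.24, the IgE receptor subunit gene Ms4a2 -1.84 at under 1 CPM on average, and the histamine enzyme gene Hdc 0.77. Cd86, a co-stimulatory molecule of antigen-presenting cells, fell by 0.66 on the log2 scale (edgeR adjusted p = 0.0399), from 16.9 ± 1.70 to 10.7 ± 1.98 CPM (SD, n = 6 each).

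Antigen-presenting cells held no other gene called in edgeR among those listed, beside 0.378% called over all genes tested. Of 13 dendritic-cell genes 0 were called in edgeR, while unadjusted p was under 0.05 for 1 with a positive and 8 with a negative change (DESeq2 called 0 and 4). There 12 had a negative change, and the median was -1.05. The leading members were the receptor gene Clec9a (-2.03, at under 1 CPM on average), the homing receptor gene Ccr7 (-1.32) and the chemokine gene Ccl22 (-1.16), with edgeR adjusted p from 0.0735 to 0.0914. Of 11 MHC class II genes 0 were called in edgeR, while unadjusted p was under 0.05 for 0 with a positive and 7 with a negative change (DESeq2 called 0 and 0). All 11 had a negative change, with a median of -0.29. H2-Ab1 had a log2 change of -0.32, H2-DMa -0.29 and H2-Ob -2.45 (edgeR adjusted p from 0.166 to 0.208). H2-Ob is a B-cell gene that stood at 10.1 CPM in MI1. Of 20 macrophage and monocyte genes 0 were called in edgeR, while unadjusted p was under 0.05 for 1 with a positive and 9 with a negative change (DESeq2 called 1 and 3). Among them 14 had a negative change, with a median of -0.29. Their 2 most abundant leading members, Spp1 and the lysozyme gene Lyz2, had -0.42 and -0.53, and the scavenger receptor gene Cd163 had 1.51 (edgeR adjusted p from 0.108 to 0.143).

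Lef1, a transcription factor of T cells and of Wnt signalling, had the largest fall of the called genes named here. It stood at 3.88, 5.45 and 6.34 CPM in MC, 9.18, 5.0 and 5.13 in MI, 0.979, 1.19 and 1.30 in HC and 0.809, 2.57 and 2.44 in HI. Every altitude tumour was below every ambient one, and the log2 change was -1.94 (SE 0.28, adjusted p = 0.0253). Leaving out MC2, MC3, MI1, HC1 or HC3 ended the call (edgeR adjusted p up to 0.0722). The 23 T and NK cell genes as a whole had a median of -0.07, with 10 positive and 13 negative, and Lef1 was the 1 called in edgeR (DESeq2 called 0 higher and 4 lower). The other leading members were Cd4 (-1.63), Tcf7 (-0.58) and the regulatory T-cell gene Foxp3 (-1.56), all highest in MI1. Of 9 B and plasma cell genes 0 were called in edgeR, while unadjusted p was under 0.05 for 1 with a positive and 4 with a negative change (DESeq2 called 1 and 0). Their median was -2.37, with 0.14 in vehicle and -4.71 in IOX2 tumours, and MI1 carried the high values among ambient tumours. Its summed level was 1285 CPM, against 542 to 584 CPM in the other ambient tumours. Cd79b, part of the B-cell receptor, stood at 22.8 CPM there and had a log2 change of -4.03, Fcrla -2.69 and the plasma-cell and epithelial gene Sdc1 0.32. None of these passed in edgeR, and Sdc1 passed in DESeq2. Without MI1 the median of the B and plasma cell list was 0.15, and that of the T and NK cell list 0.19.

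**Figure D4:**
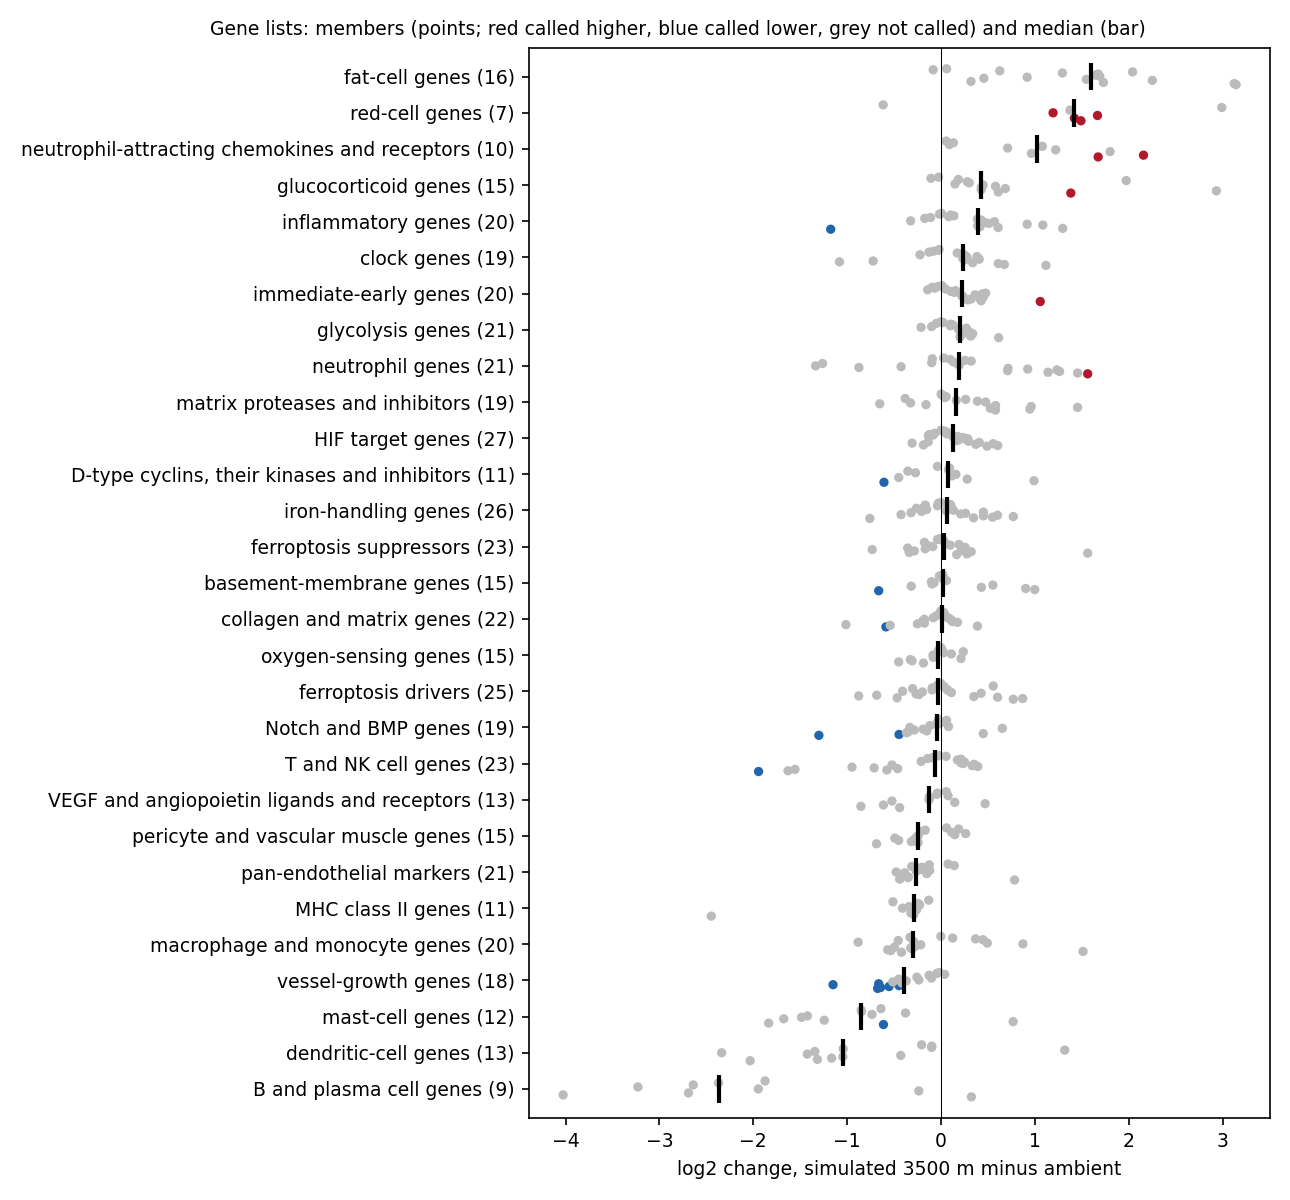
Log2 change with altitude (horizontal axis, simulated minus ambient) of the tested members of 29 gene lists, with the number tested in parentheses; each point is a gene, red if called higher, blue if called lower and grey if not called, and each black bar is the list's median. Medians run from -2.37 for B and plasma cell genes to 1.60 for fat-cell genes, and 6 called members sit in the vessel-growth list and 4 in the red-cell list.

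The oxygen sensors and the HIF pathway held no gene past the threshold in edgeR. Over all genes tested 0.378% passed, so 0 in lists of this size says little about the pathway. Egln1, which encodes PHD2, the hydroxylase that IOX2 inhibits, ranged from 142 to 186 CPM (median 158) at ambient altitude and from 126 to 272 CPM (median 181) at simulated altitude. The ranges overlap, and its log2 change was 0.21 with a 95% interval of -0.08 to 0.50 (edgeR adjusted p = 0.442). Egln2, its relative, had -0.08 and Egln3, itself a HIF target, -0.31. The HIF subunit gene Hif1a had -0.45 (edgeR adjusted p = 0.309), with 721 CPM in MI3. Epas1, the HIF subunit prominent in vessels, had 0.11, with 0.48 in vehicle and -0.25 in IOX2 tumours. Of the 15 oxygen-sensing genes 0 were called in edgeR, while unadjusted p was under 0.05 for 0 with a positive and 1 with a negative change (DESeq2 called 0 and 0). Their median was -0.03. Of 27 HIF target genes 0 were called in edgeR, while unadjusted p was under 0.05 for 2 with a positive and 1 with a negative change (DESeq2 called 1 and 0). Here 20 had a positive change and the median was 0.13. The lipid-droplet gene Plin2 had 0.49 (edgeR adjusted p = 0.136), the lipase inhibitor gene Angptl4 0.60 and the collagen-modifying enzyme gene P4ha2 -0.19. Of 21 glycolysis genes 0 were called in edgeR, while unadjusted p was under 0.05 for 4 with a positive and 0 with a negative change (DESeq2 called 0 and 0). Of these, 18 had a positive change and the median was 0.20, with 0.06 in vehicle and 0.40 in IOX2 tumours. The glucose transporter gene Slc2a1 had 0.61 (edgeR adjusted p = 0.192), the kinase gene Pdk3 0.20 and Gapdh 0.32.

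Ferroptosis, an iron-dependent death through oxidized lipids, is the subject of the series, and none of its listed genes passed the threshold in edgeR. Over all genes tested 0.378% passed, so 0 in lists of this size says little about ferroptosis. Of 25 drivers 0 were called in edgeR, while unadjusted p was under 0.05 for 4 with a positive and 1 with a negative change (DESeq2 called 2 and 0). Of 23 suppressors 0 were called in edgeR, while unadjusted p was under 0.05 for 5 with a positive and 4 with a negative change (DESeq2 called 0 and 0). Over all 15333 genes tested, unadjusted p was under 0.05 for 1256 and 1265 (DESeq2 called 439 and 377). Medians were -0.03 for drivers and 0.03 for suppressors. Gpx4, which repairs oxidized membrane lipids, ranged from 216 to 297 CPM (median 239) at ambient altitude and from 227 to 261 CPM (median 243) at simulated altitude. Its change was -0.01 with a 95% interval of -0.17 to 0.15 on the log2 scale. Slc7a11, which imports cystine for glutathione, had -0.73 (edgeR adjusted p = 0.259), with -1.31 in vehicle and -0.16 in IOX2 tumours. The stress gene Chac1, which degrades glutathione, had 0.87, the oxidase gene Cybb -0.47, the fatty-acid desaturase gene Scd1 1.56, the acyltransferase gene Mboat1 0.17 and Cisd1 0.28. Scd1 is also abundant in fat cells.

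Cells take up iron through the transferrin receptor and export it through ferroportin. Of 26 iron-handling genes 0 were called in edgeR, while unadjusted p was under 0.05 for 7 with a positive and 2 with a negative change (DESeq2 called 3 and 1). The median was 0.06. The iron exporter gene Slc40a1 ranged from 4.47 to 9.14 CPM (median 7.17) at ambient altitude and from 3.55 to 5.33 CPM (median 4.05) at simulated altitude. Its log2 change was -0.76 (adjusted p = 0.0710 in edgeR). The metal importer gene Slc39a14 did not overlap and had 0.35 (adjusted p = 0.0735), the metal reductase gene Steap1 0.55 (adjusted p = 0.0828) and the transferrin receptor gene Tfrc 0.77 (adjusted p = 0.106), all by edgeR.

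Nid2 and Thbs1 were the called genes of the matrix lists. Of 15 basement-membrane genes Nid2 was the 1 called in edgeR (DESeq2 called 2 higher and 1 lower), with a median of 0.02. Laminin chains of epithelium had changes of the other sign without passing, Lama3 at 0.999 (edgeR adjusted p = 0.0885) and Lamb3 at 0.90. Both were highest in HI1. Of 22 collagen and matrix genes Thbs1 was the 1 called in edgeR (DESeq2 called 1 higher and 2 lower), and the median was 0.01. Col18a1, whose cleavage yields endostatin, had 0.39 (edgeR adjusted p = 0.0710), Col15a1 -0.54 and the proteoglycan gene Lum -1.01. Of 19 matrix proteases and inhibitors 0 were called in edgeR, while unadjusted p was under 0.05 for 6 with a positive and 3 with a negative change (DESeq2 called 6 and 0). The median was 0.16. The urokinase gene Plau had 0.58 (edgeR adjusted p = 0.0646), its receptor gene Plaur 0.53 (adjusted p = 0.0868) and the stromelysin gene Mmp3 0.95 (adjusted p = 0.0810).

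Fat-cell genes had the highest median of the lists, 1.60 over 16 genes with 15 positive. Of these genes 0 were called in edgeR, while unadjusted p was under 0.05 for 9 with a positive and 0 with a negative change (DESeq2 called 3 and 0). Leptin (Lep) had 3.14, resistin (Retn) 3.12 and the lipid carrier gene Fabp4 1.73, with edgeR adjusted p from 0.113 to 0.136. The summed level was 1610.3 CPM in HC1, 1453 in HC2 and 1313 in HI2, but 708 in HC3, 926 in HI1 and 732 in HI3. Ambient tumours ran from 750.3 to 1000.1 CPM, so 3 of the 6 altitude tumours lay above that range. Without those 3 the list's median was -0.04, and 1 gene was called in place of 58 over all genes; how much the smaller number of tumours and how much their fat content contributed was not tested. The other 19 lists, among them proliferation, interferon response, ribosomal proteins and respiration, had medians between -0.44 and 0.23.

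The altitude effect was then fitted in each treatment alone, with 3 tumours against 3. These fits share no sample. Vehicle tumours gave 62 called genes (442 with the replicate number as a block, which pairs those libraries) and IOX2 tumours 0 (smallest adjusted p = 0.491 in edgeR, with 1394 genes at an unadjusted p under 0.05). A difference between treatments was not shown by this, since the altitude by treatment interaction, tested directly, called 0 genes (smallest adjusted p = 0.599 in edgeR, unadjusted p under 0.05 for 1256 genes). For the interaction, 29 genes passed in DESeq2. Of the 58 genes called in the pooled fit, 57 had an unadjusted interaction p of 0.05 or more. That all 58 had the same sign in both treatments follows from how a pooled fit selects genes.

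Genes picked in 1 treatment and read in the other carry no such selection. The 100 genes with the smallest p in vehicle tumours, among 11226 genes averaging 5 CPM or more, had the same sign in IOX2 tumours in 93 cases, 57 of 63 higher and 36 of 37 lower. Of them, 33 reached an unadjusted p under 0.05 there in the same direction. The 100 leading genes of IOX2 tumours had the same sign in vehicle tumours in 79 cases, 32 of 43 higher and 47 of 57 lower. Over all 11226 genes the signs matched for 57.3%. Across all 15333 genes, which are not independent replicates, the log2 changes of the treatments had a Pearson correlation of 0.279 and a Spearman correlation of 0.194.

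**Figure D5:**
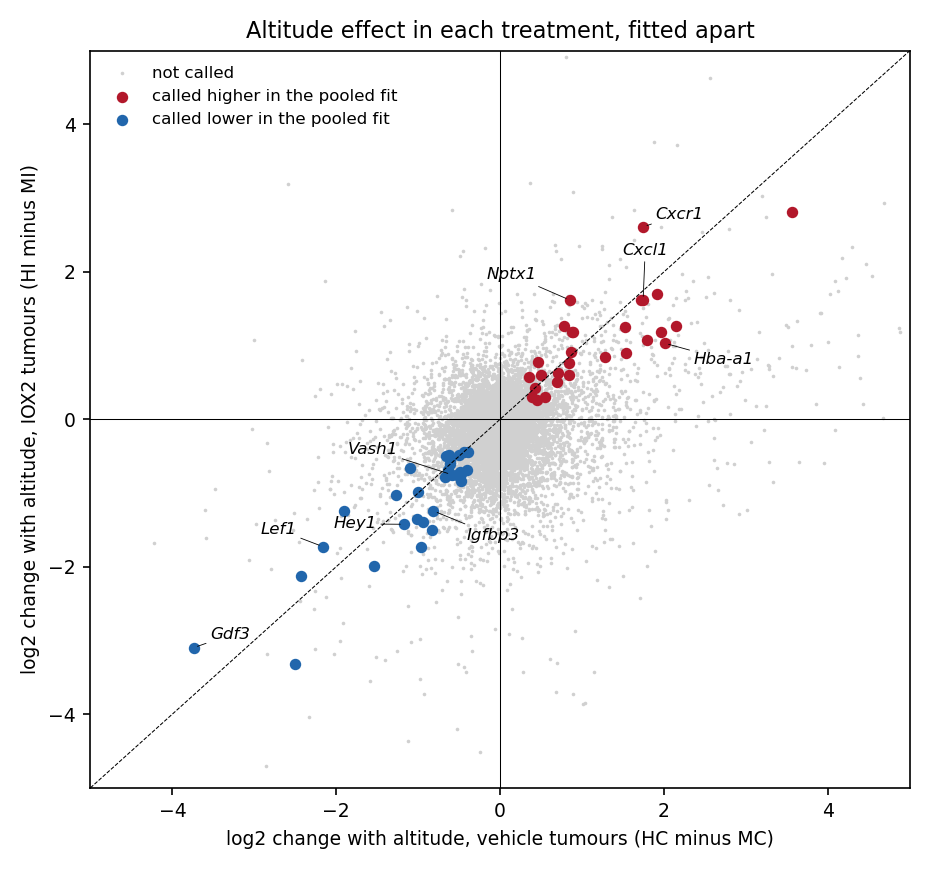
Log2 change with altitude in vehicle tumours (horizontal axis, HC minus MC) against that in IOX2 tumours (vertical axis, HI minus MI), each fitted from 3 and 3 tumours, with genes within 5 log2 units of 0 on both axes drawn. Grey points are genes not called, red and blue points the 28 and 30 genes called in the pooled fit, which lie in the upper right and lower left by selection; the dashed line marks equal change.

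The threshold itself separates genes of similar size. Just inside it, at an adjusted p of 0.0479 in edgeR, were the mitochondrial ribosome gene Mrps6 (log2 change 0.42), the folate enzyme gene Shmt1 (0.35), Tent5b (1.01) and the adiponectin receptor gene Adipor2 (0.45). Just outside, at 0.0506 in edgeR, were the laminin receptor gene Bcam (-0.42), the phosphatase gene Dusp7 (0.54), Lmo7 (-0.80) and the chromatin gene Hmga1 (0.76).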

How the data were processed

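RNA from 12 tumours (3 mice in each of the 4 groups of altitude and treatment, of 24 mice in the whole study) was sequenced as 150-base read pairs, per the labels' protocols. The authors deposited gene counts and FPKM values for each tumour. The submitters' processing notes name the mouse build GRCm39, HTSeq 0.11.2, HISAT2 2.1.0, fastp 0.20.1, R 3.5.1 and DESeq2 1.22.2. For the annotation release and the strand setting of counting, the sources used here give nothing. Dividing counts by the deposited FPKM values, scaled by library, gave whole gene lengths within 0.01 base for 100% of 229103 values above 0.

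Genes with at least 10 counts in 3 or more libraries were tested in edgeR 4.0.16 (R 4.3.3) on the deposited counts, with TMM scaling, altitude and treatment as terms, the quasi-likelihood test and Benjamini-Hochberg adjustment at 0.05 over 15333 genes. Interaction and single-treatment fits used the same genes. The code was tested on simulated data. DESeq2 1.42.0, limma 3.58.1 on voom weights and on log2(FPKM + 1), other filters and scalings, the replicate block and leaving out each library were alternatives. Named genes are, among called genes with at least 5 CPM in the higher group, the 12 largest rises, 12 largest falls and 6 smallest p; of each of 29 lists the called members and up to 3 others with the smallest p; 10 genes of oxygen sensing, iron and ferroptosis; called genes with an interaction p under 0.05; and the 4 genes nearest the threshold on each side. Predicted genes and pseudogenes were left out of those ranks, and some genes that the rule names are not reported here. Replicate numbers, shared by the groups, entered as a block only in alternative fits. The vehicle changes and the leading vehicle genes reported here come from the fit without that block. Between HC and MC the deviations of all 3 same-numbered pairs correlated by over 0.1 (0.146 to 0.269). Between HI and MI the correlations were 0.069 to 0.255. The comparison and the lists were chosen with earlier results of these data known. Exact permutations within treatment were two-sided. Library totals of 31661685 to 40019343 counts place 3 counts at 0.0750 to 0.0948 CPM. Symbols come from the count table, and promoters from RefSeq (GRCm38.p6), used by symbol only. Antisense partners and near-identical copies (Hba-a1 and Hba-a2, Hmga1 and Hmga1b) cannot be separated with certainty.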

Additional observations from a re-analysis of the deposited data

Results flagged for a closer look

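A tumour was singled out where its level lay far from the other 5 of its altitude by Dixon's gap test, which chance alone meets in about 1 in 20 groups of 6. It was met in 30 of 258 groups, from named genes at both altitudes.

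MI1 was the highest ambient tumour for 12 genes. For vessels and muscle these were 266 CPM for Acta2 against 141 to 174 in the other ambient tumours, and 22.5 CPM for Flt4 against 11.6 to 15.1. For dendritic and B cells it had 10.5 CPM for Ccr7 against 3.11 to 4.03, 9.05 CPM for Ccl22 against 3.42 to 5.45 and 10.1 CPM for H2-Ob against 0.453 to 0.883. The B-cell genes gave 22.8 CPM for Cd79b against 0.479 to 1.221 and 8.37 CPM for Fcrla against 0.252 to 0.814. T-cell genes gave 15.2 CPM for Cd4 against 3.08 to 5.22, 31.6 CPM for Tcf7 against 13.8 to 18.1 and 3.36 CPM for Foxp3 against 0.627 to 1.13. Lipid genes gave 194 CPM for Scd1 against 63.4 to 109 and 64.6 CPM for Fabp4 against 21.1 to 37.3.

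Other ambient tumours stood apart for fewer genes. MC3 had 1026 CPM for Lyz2 against 798 to 879. MI3 had 1.28 CPM for Ms4a2 against 0.153 to 0.461 and 312 CPM for Cdkn1b against 103 to 159.6. MI2 had 10.97 CPM for Per2 against 6.99 to 8.41.

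At simulated altitude, HI1 was the highest tumour for 5 genes, with 48.2 CPM for Pthlh against 22.7 to 29.8, 2.82 CPM for Slc4a1 against 0.156 to 0.617 and 116 CPM for Il1a against 32.5 to 61.5 in the other altitude tumours. It also had 244 CPM for Tfrc against 99.2 to 145 and 317 CPM for Lamb3 against 93.6 to 177. HC1 had 34.6 CPM for Kdr against 23.3 to 27.2, 8.13 CPM for Zbtb16 against 0.174 to 1.87, 4.25 CPM for Lep against 0.0747 to 1.28 and 61.0 CPM for Epas1 against 30.7 to 41.6. HC2 was the lowest for 1 gene, with 2.89 CPM for Slc25a48 against 5.03 to 5.95. HC3 had 49.8 CPM for Nid2 against 32.2 to 36.8 and 32.9 CPM for Mmp8 against 6.98 to 15.4. HI3 had 0.672 CPM for Clec9a against 0.0779 to 0.245 and 4.11 CPM for Cpa3 against 0.861 to 1.69. Pthlh, Slc25a48 and Nid2 are called genes.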

How the results depend on the processing

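The 58 calls (28 higher, 30 lower) became 816 in DESeq2 (439 higher, 377 lower), 101 with no filter on low counts (52 and 49), 93 with treatment left out (42 higher and 51 lower) and 135 with the replicate block (64 and 71). They became 8 in limma on log2(FPKM + 1) (2 higher, 6 lower), and limma on voom weights called 15 higher and 42 in all. Without MI1 and MI3 there were 3 calls (0 higher, 3 lower), in IOX2 tumours only 0 (0 and 0), and without HC1, HC2 and HI2, chosen after seeing the data, 1 (1 higher, 0 lower). Leaving out 1 library gave 2 to 328 calls, 0 to 171 higher and 2 to 157 lower. The interaction gave 29 calls in DESeq2 and 0 to 2 with 1 library left out, 2 without MI2. With the 50 leading genes of IOX2 tumours, the same sign was found in vehicle tumours for 88%. No called gene changed direction in any setting, which follows in part from selecting the genes on these same libraries. DESeq2, its size factors in edgeR, the filter of edgeR and the replicate block called each of the 58. Other settings lost some of them. In limma the loss was 50 on log2(FPKM + 1), 12 on log2(FPKM + 0.1) and 17 on voom weights. In edgeR it was 10 in the robust fit, 8 with treatment left out and 5 with group means as terms. A filter of 1 CPM in 3 libraries removed 4 before testing and called the other 54, and no filter on low counts lost 1. Among uncalled genes, Epas1 turned to -0.25 in IOX2 tumours only, -0.051 without HC1, HC2 and HI2, and ran from -0.034 to 0.23 with 1 library left out, below 0 without HC1. Gpx4 turned to 0.0029 and 0.0030 in limma on log2(FPKM + 1) and log2(FPKM + 0.1), 0.045 in IOX2 tumours only and 0.023 without HC1, HC2 and HI2, and ran from -0.052 to 0.034 with 1 library left out, above 0 without MC2, MC3, MI2 or HC1. The cause of these differences was not tested. The vehicle fit with the replicate block, added after seeing the data, called 442 (265 higher, 177 lower). Over all groups, the 18 pairs of same-numbered libraries had correlated deviations from -0.19 to 0.31 with 11 over 0.1, and the other 36 pairs from -0.40 to 0.42 with 6 over 0.1. Not every same-numbered pair passed 0.1, so the pooled comparison has no replicate block; with it, 10 named genes not called above passed (Vwf, Slc4a1, Slc40a1, Steap1, Col18a1, Plau, Bcam, Dusp7, Lmo7 and Hmga1).

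There are 6 mice for each altitude. Genes under 1 CPM, such as Cxcr1, Slc4a1, Ms4a2 and Clec9a, rest on few counts. Counting intervals would cover counting error only. Bulk RNA gives no share of cell types, and chamber housing goes with altitude in every mouse.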
